A study of Macaca mulatta with 24 samples.

Results

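The interferon-stimulated genes are a set of 54 genes whose transcription rises in cells exposed to interferons. The 54 symbols were listed by name, at a time when earlier results of these data were known. A gene counted as a member where the gene name in the array files equalled a listed symbol, and the probe with the highest mean level over the 24 arrays stood for it. This matched 26 of the 54 symbols, among 18976 genes or unnamed probes on the array, and 19 of the 26 passed the filter on dim probes among 12053 features tested. The samples were endometrium, the lining of the uterus, of rhesus monkeys (Macaca mulatta), taken as total RNA in cycles with mating and proven conception and in normo-ovulatory cycles without mating. Each cycle type had 4 one-colour Cy3 arrays on every sampled day, namely 2, 4 and 6 days past ovulation, and per the series' design text the monkeys had proven fertility. Ages, pooling of RNA and the animal behind each array are not given in the labels, so a p-value here speaks of the scatter among the arrays only, and that scatter can be technical. The source names of the conception samples count the days from fertilization and their descriptions from ovulation.

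Interferons are secreted signals that bind receptors on the cell surface, activate Janus kinases and STAT proteins, and through them and the interferon regulatory factors switch on a large set of genes. Type I and type III interferons induce antiviral effectors such as the MX and IFIT proteins, and interferon gamma induces IRF1, guanylate-binding proteins and antigen-processing genes. In ruminants the embryo secretes interferon tau before it attaches, and ISG15, MX1 and related genes rise in the endometrium. Whether endometrium of conception cycles held more of these transcripts than endometrium of non-mated cycles, and whether they moved together between arrays, were the questions put to the arrays here.

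The share of probes well above background lay from 53.3% to 71.5% on 21 arrays. Only 4.33%, 37.9% and 21.8% were on non-mated day 2 replicate 3, non-mated day 4 replicate 1 and non-mated day 4 replicate 2, and these 3 arrays are called dim below. Values without them are given where they turn a printed difference between cycle types or move it by over 1.5 times. Levels are log2 signal minus the 75th percentile of the same array, so a level of 0 lies at that percentile and 1 unit is a doubling. A level of 1 probe cannot be set against that of another probe, and array signal gives no read depth, so the number of arrays limits the precision. Of genes that mark endometrium, HOXA11 and MSX1, regulators of the uterus, and KRT19 and PAX8, carried by the epithelium, were each well above background on 23 of 24 arrays.

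Of the 26 members, 7 did not pass the filter. No array had OASL well above background, and OAS1 and GBP2 were on 1 array each. TAP2 was on 2 arrays, STAT2 on 3, OAS2 on 4 and EIF2AK2 on 7. OAS1 and OAS2 encode oligoadenylate synthetases, whose products activate RNase L, and OASL belongs to the same gene family. EIF2AK2 encodes the RNA-dependent kinase PKR, and STAT2 is a transcription factor of type I signalling. In no group was any of these 7 members well above background on 3 or more arrays. For OAS1, the conception arrays read -4.16, -4.74, -7.60 and -6.84 on day 2, while on day 4 they read -5.25, -5.63, -4.79 and -6.00 and on day 6 -5.58, -5.69, -6.22 and -5.80, none of them well above background. The non-mated arrays read -6.41, -6.36, -0.28 and -5.53 on day 2, while on day 4 they read -2.66, -1.62, -7.84 and -7.95 and on day 6 -5.64, -6.69, -6.34 and -5.99, and day 2 replicate 4 alone was well above background. Its 3 highest readings, -0.28, -1.62 and -2.66, came from the dim arrays, where the probe was not well above background.

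Of the 19 members that passed, IFITM1, which encodes a membrane protein that hinders virus entry, and IFI27, a small mitochondrial and membrane protein, were well above background on all 24 arrays. The RNA sensor IFIH1, the interferon regulatory factors IRF1 and IRF7, and ISG15, ISG20, IFIT1, IFIT2, IFIT3, GBP1 and TRIM22 were well above background on 22 arrays. OAS3, DTX3L and LGALS3BP were well above background on only 14, 11 and 11 arrays, so that many of their readings are bounds. At conception day 4, 0 of 4 arrays had DTX3L well above background.

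Several members varied together between arrays of one group. ISG15, a ubiquitin-like protein that is joined to other proteins, read 2.54, 3.18, 0.76 and 0.11 on the 4 conception arrays of day 2. It read 0.96, -0.32, -0.28 and 2.50 on the 4 non-mated arrays of day 2, the third of them dim and not well above background. High and low arrays thus occurred in both cycle types on that day, and the groups overlapped. MX1, a dynamin-like GTPase that traps viral particles, read 1.91, 2.45, 0.43 and -0.03 in conception cycles and 0.48, -0.01, -0.16 and 2.48 in non-mated cycles at day 2. The same arrays were high in MX1 as in ISG15, namely conception replicates 1 and 2 and non-mated replicate 4. For IFI27 the day 2 arrays read 0.18, 2.09, -0.55 and -0.15 in conception cycles and 0.25, -1.02, 1.54 and 1.88 in non-mated cycles, with conception replicate 2 and non-mated replicate 4 again on top. IFIT1, which binds foreign RNA by its unmodified cap, read -1.72, -0.79, -1.52 and -1.86 in conception cycles and -2.35, -2.76, -0.28 and -0.12 in non-mated cycles at day 2, and these 2 arrays were also its highest apart from the dim array.

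**Figure D1:**
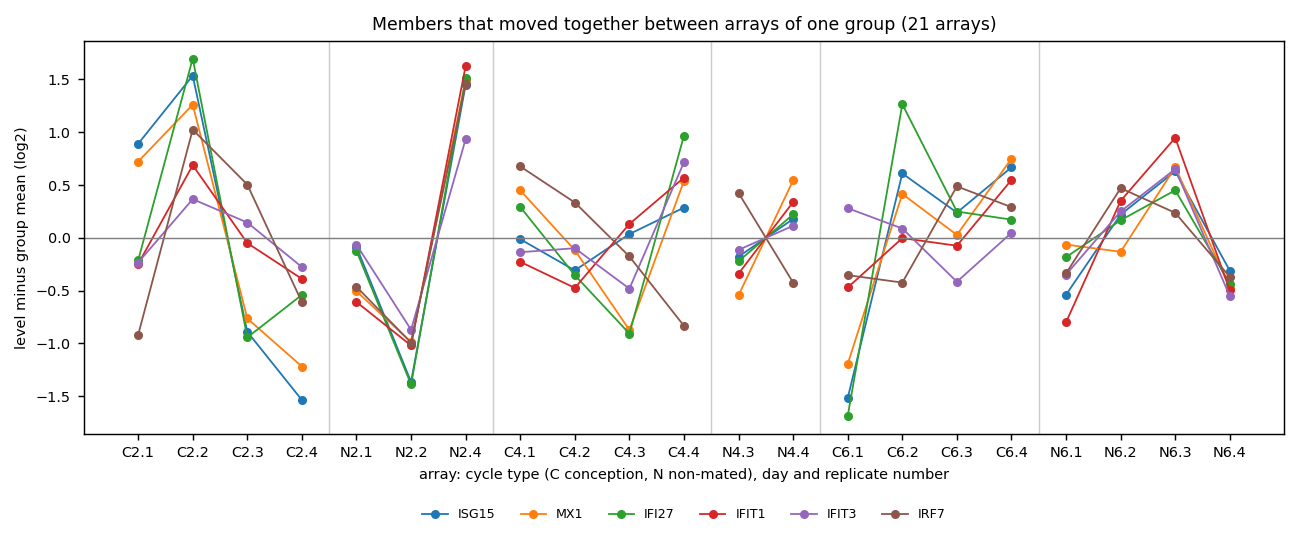
Levels of 6 members on each of the 21 arrays that were not dim, as log2 level minus the mean of the array's group (y axis), with arrays on the x axis named by cycle type, day and replicate number and grey lines between groups. ISG15, MX1 and IFI27 were all above their group means on conception day 2 replicate 2 and non-mated day 2 replicate 4 and all below on conception day 6 replicate 1 and non-mated day 2 replicate 2; lines join arrays of one group only to guide the eye.

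The probes behind this pattern, shown because they differ in sequence, are 60-base oligonucleotides, and 30 bases of each are printed 5′ to 3′ with the hexamer AATAAA, the common polyadenylation signal, in capitals where it occurs. Positions are those that the array files give on the rheMac2 build.
ISG15, chr1:4091885-4091944, plus strand, bases 31 to 60: attcgagcaagatcaagggctggaAATAAA
MX1, chr3:5187741-5187800, minus strand, bases 31 to 60: ctgtctcctccgtttgtAATAAActtattt
IFI27, chr7:157346777-157346836, plus strand, bases 1 to 30: gtgccagggggagaaggcacccagccatcc
IFIT1, chr9:88963522-88963581, plus strand, bases 1 to 30: actttgagaactctgtgagacaaggtcctt
IFIT3, chr9:88912509-88912568, plus strand, bases 1 to 30: gccccagcttggggttgctgagcagggaag
The hexamer was found in 5 of the 26 member probes (19.2%) and in 12.8% of all 20217 probes on the array, read as printed and on 1 strand. A match describes these letters only and shows no functional site, and which exon or untranslated region each probe lies in was not looked up, because no annotation of rheMac2 was used here. Among the 325 pairs of member probes the longest run of identical bases was 10, between IFIT1 and IFI27, and ISG15 and MX1 shared at most 6. IFIT1 and IFIT3, which lie near each other on chromosome 9 and are related in sequence, shared a run of 5 bases in their probes.

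To measure the coordination, each level was centred on the mean of its group, and pairs of members were correlated over the 21 arrays that were not dim. ISG15 and MX1 correlated at Pearson r = 0.91 and Spearman rho = 0.89, with permutation p = 6e-05 and 0.00012 from 100000 resamples of arrays within their groups, two-sided. Adjusted over the 10 pairs of the 5 measured genes ISG15, MX1, IFIT1, IFI27 and IRF1, these became 0.0003 and 0.000425. Without the 2 arrays farthest from the median of ISG15, r was 0.88. It was 0.92 over the 12 conception arrays and 0.90 over the 9 non-mated arrays, and 0.89 over the 11 arrays of scan day 1 and 0.94 over the 10 arrays of scan day 2. Of all pairs of the 12053 features, 0.0354% correlated at least as highly.

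**Figure D2:**
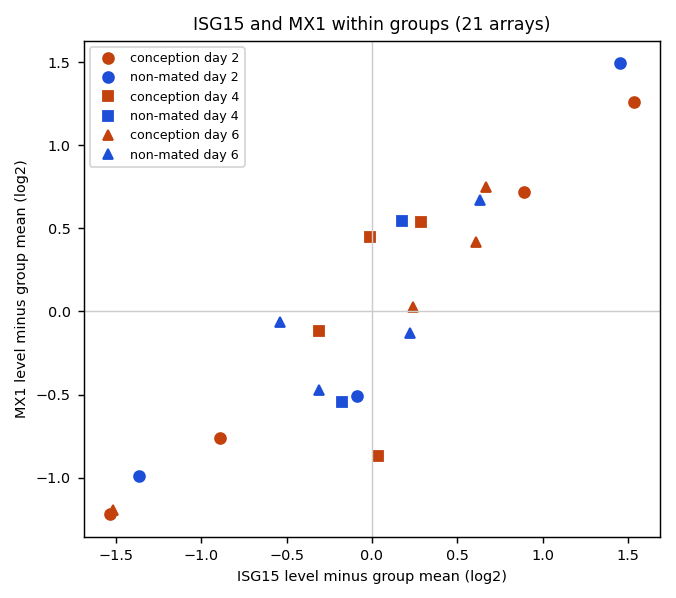
ISG15 level (x axis) against MX1 level (y axis), both log2 and minus the group mean, for the 21 arrays that were not dim. Each point is 1 array, with conception cycles in orange and non-mated cycles in blue and the day given by the symbol; the points of both cycle types lie along one diagonal with r = 0.91.

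The same held for the pairs that ISG15 and MX1 formed with IFI27 and IFIT1. ISG15 correlated with IFI27 at r = 0.85 and rho = 0.82 (adjusted permutation p = 0.000325 and 0.000425), and MX1 with IFI27 at r = 0.87 and rho = 0.84 (adjusted permutation p = 0.0003 and 0.000425). IFIT1 correlated with ISG15 at r = 0.74 and rho = 0.78, with MX1 at r = 0.73 and rho = 0.66, and with IFI27 at r = 0.70 and rho = 0.69, and the adjusted permutation p ranged from 0.000325 to 0.00508. Without the 2 farthest arrays r was 0.84 for ISG15 with IFI27, 0.80 for MX1 with IFI27 and 0.78, 0.60 and 0.64 for IFIT1 with ISG15, MX1 and IFI27. Within the 2 scan days these pairs lay between 0.78 and 0.90. With all 24 arrays, the pair ISG15 and IFI27 had r = 0.61 and the pair MX1 and IFI27 had r = 0.67.

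IRF1, a transcription factor that interferon gamma induces, did not follow this group past the threshold. It correlated with ISG15 at r = 0.19 and rho = 0.25, with MX1 at r = 0.26 and rho = 0.20, with IFI27 at r = 0.20 and rho = 0.29 and with IFIT1 at r = 0.43 and rho = 0.46. The adjusted permutation p for these 4 pairs ranged from 0.103 to 0.469. Over the 12 conception arrays the 4 values of r lay between -0.16 and -0.05 and over the 9 non-mated arrays between 0.64 and 0.82, and the difference between the cycle types was not tested.

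Over all 19 members the median of the 171 pairwise correlations was 0.11, against -0.0014 over all pairs of features. Correlations above 0.5 made up 15.2% of member pairs (26 pairs) and 8.0% of all feature pairs, and 111 member pairs were above 0. The pairs ranged from -0.72, for IRF2 with TAP1, to 0.91, for ISG15 with MX1. The members' median moved to 0.0072 when levels were centred on the slide as well and to 0.018 with normexp background correction. With all 24 arrays it was 0.055, beside 0.025 over all pairs of features. With slides centred too, the pair ISG15 and MX1 had r = 0.94.

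Against the median of the other members, IFI27 correlated highest (r = 0.76, rho = 0.81), followed by IFIT1 (r = 0.75, rho = 0.73), MX1 (r = 0.74, rho = 0.67), IFIT3 (r = 0.71, rho = 0.69) and ISG15 (r = 0.65, rho = 0.65). IRF7, which drives the transcription of interferon genes, came next at r = 0.64 and rho = 0.56. At the other end stood IRF2, a repressor that competes with IRF1 (r = -0.29, rho = -0.38), BST2 (r = -0.12, rho = -0.20) and DTX3L (r = -0.06, rho = -0.01). A second pair, OAS3 and LGALS3BP, correlated at r = 0.83 and rho = 0.82, but both were dim probes, well above background on 14 and 11 arrays. ISG20, an RNA exonuclease, and the guanylate-binding protein GBP1 correlated at r = 0.68 and rho = 0.71. These values are descriptions over the same 21 arrays, with no test.

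**Figure D3:**
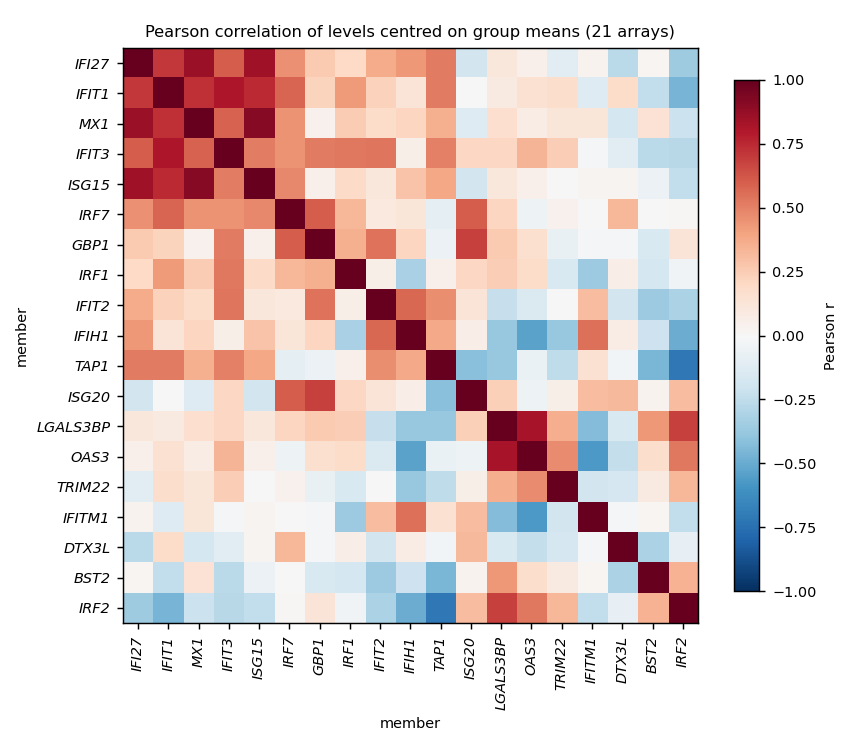
Pearson correlations between the 19 members over 21 arrays, with levels centred on group means; both axes list the members in order of their correlation with the median of the other members, and colour gives r from -1 (blue) to 1 (red). The block of high values at the upper left holds IFI27, IFIT1, MX1, IFIT3 and ISG15, with ISG15 and MX1 at 0.91, and the darkest blue cell is IRF2 with TAP1 at -0.72.

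The median centred level of the members was highest on non-mated day 2 replicate 4 (0.52, with 14 of 19 members above their group mean), non-mated day 6 replicate 3 (0.45, 17 of 19) and conception day 2 replicate 2 (0.40, 13 of 19). It was lowest on non-mated day 2 replicate 2 (-0.38, 2 of 19). High arrays therefore included both cycle types. Across all 12053 features, those that correlated best with this median were IFIT1 (r = 0.83), IFI27 (0.81), IFIT3 (0.81) and MX1 (0.79), themselves part of it, followed by the unnamed transcript ENSMMUT00000047582 (0.77). ISG15 ranked 14 and IRF7 ranked 17. The members' median also went with the share of probes well above background, at r = 0.64, as did IFIT1 at 0.64, whereas ISG15, MX1 and IFI27 correlated with that share at 0.22, 0.21 and 0.30. Its part in the coordination was not tested.

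Between conception and non-mated cycles no member passed an adjusted p of 0.05 in the limma fit over all 12053 features at any day, nor on average over the days, in any change with day or in the interaction of cycle type and day. At day 2, 0 of 19 members were called, as were 0% of all features, and 1 of 19 members and 2.48% of all features had an unadjusted p under 0.05. At day 4 these were 0 of 19 members and 0% of features, and unadjusted 0 of 19 and 6.07%. At day 6 they were 0 of 19 members and 0.0083% of features, and unadjusted 1 of 19 and 2.41%. On average over the 3 days 0 of 19 members and 0.0083% of features were called, with 2 of 19 and 6.66% unadjusted. The members behind these counts were BST2 at day 2, IFITM1 at day 6, and IFITM1 and IRF1 in the mean. The interaction called 0 of 19 members and 0% of features, with 1 of 19 and 1.36% unadjusted. The groups of day 4 did not overlap for 0 of 19 members and for 2.42% of features. Without the dim arrays, which leaves 2 non-mated arrays, they did not overlap for 3 of 19 members, ISG15, IRF1 and DTX3L, all reading higher in conception cycles, and for 14% of features. DTX3L was well above background on 0 of 4 conception arrays and 1 of 4 non-mated arrays of day 4, so its direction cannot be read. In whole tissue, fewer cells of a type and less RNA per cell cannot be told apart, and this holds for each level given here.

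The members' median difference, conception minus non-mated, was -0.11 at day 2, 0.09 at day 4 and -0.16 at day 6 on the log2 scale, beside -0.15, 0.02 and 0.00 for all features. At day 2, 8 members were higher and 11 lower without regard to size, with 41.4% of all features higher. At day 4, 12 were higher and 7 lower, with 50.9% of all features higher, and at day 6, 8 were higher and 11 lower, with 50% of all features higher. In the mean of the days 9 were higher and 10 lower, with 45.8% of all features higher. Without the dim arrays the members' median was 0.07 at day 2, 0.19 at day 4 and 0.02 in the mean, with 12, 11 and 10 of 19 members higher and 51.8%, 51% and 52.5% of all features. The split of the members at day 2 thus turned with 1 dim array. Quantile normalization moved the median of all features at day 2 to 0.49 and that of the members to 0.54, with 14 members higher and 5 lower, and normexp moved them to 0.15 and 0.15, also with 14 higher and 5 lower. Relative to the median of all features, 10 of 19 members were higher at day 2 under the 75th percentile, under normexp and under quantile normalization. At day 4 quantile normalization moved the medians to 0.41 and 0.39, with 9 of 19 members above the median of all features, against 12 of 19 under the 75th percentile.

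**Figure D4:**
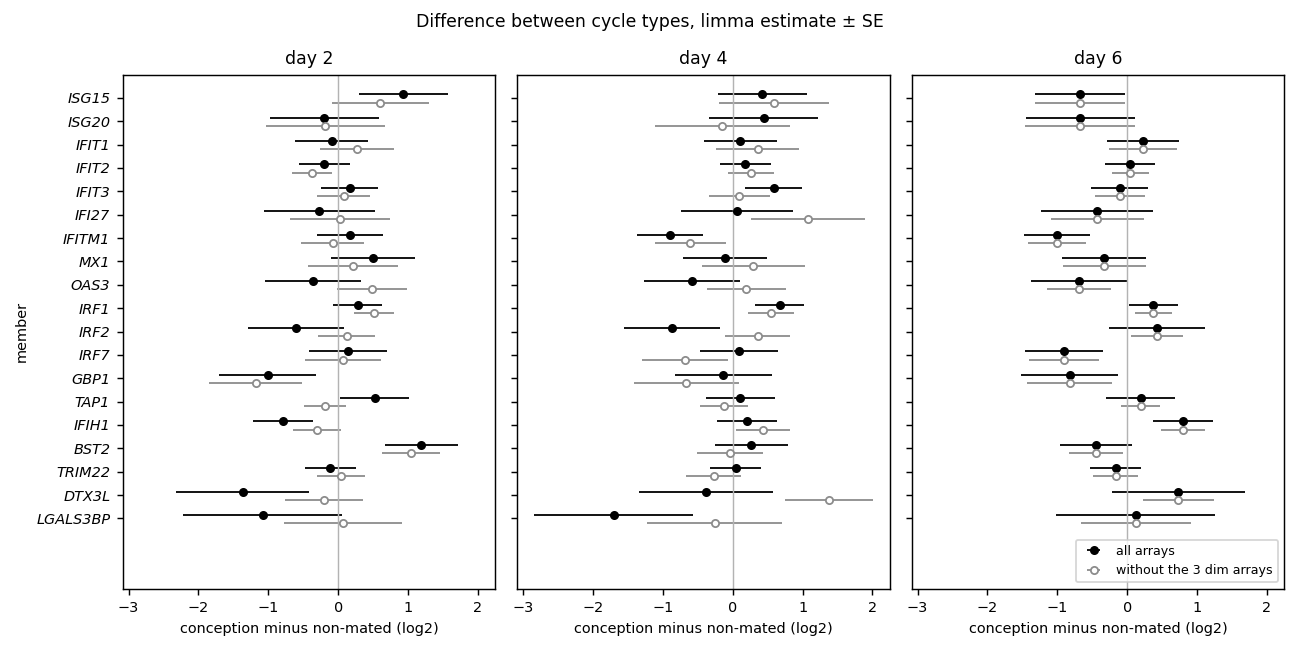
Difference between cycle types, conception minus non-mated, for the 19 members at days 2, 4 and 6 (x axes, log2; points are limma estimates and bars their SE). Filled points use all 24 arrays and open points leave out the 3 dim arrays; at day 2 BST2 lies highest at 1.19 ± 0.52 and at day 6 IFITM1 lowest at -1.01 ± 0.47, and members lie on both sides of 0 on each day.

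In the ISG15 system only ISG15 itself was measured by gene name. Its mean was 1.65 ± 1.45 in conception cycles and 0.71 ± 1.33 in non-mated cycles at day 2 (SD, n = 4 each), a difference of 0.93 ± 0.64 (SE; limma, adjusted p = 0.793). At day 4 the arrays read 0.57, 0.27, 0.62 and 0.87 in conception cycles and 0.27, 0.39, -0.18 and 0.17 in non-mated cycles, the first 2 non-mated ones dim, a difference of 0.42 ± 0.64. At day 6 they read -0.86, 1.27, 0.90 and 1.33 in conception cycles and 0.79, 1.55, 1.96 and 1.02 in non-mated cycles, a difference of -0.67 ± 0.64. Without the dim arrays the differences were 0.60 ± 0.70 at day 2 and 0.59 ± 0.79 at day 4. The estimates thus had opposite signs at days 2 and 6, and none passed the threshold. The arrays of day 2 gave opposite signs by scan day: the difference was 2.54 between the 2 conception and 2 non-mated arrays of scan day 2, and -0.67 between the 2 and 2 of scan day 1, 1 of them dim. Slide 4, part of scan day 2, carried conception replicates 1 and 2 and non-mated replicate 2 of day 2, and gave 3.18. On scan day 1, all conception arrays lay on slides 7 and 8 and all non-mated arrays on slides 5 and 6. Cycle type and slide therefore cannot be told apart in any scan day 1 difference given here. By the file headers, the scanner's extended range was off for conception day 2 replicates 1, 2 and 4. It was also off for replicate 4 of conception days 4 and 6, and among non-mated arrays for day 2 replicate 2 alone. The 75th percentile of these arrays lay from 72.2 to 296, against 940 to 5421 on the other arrays that were not dim. The part of this setting in the differences was not tested.

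The IFIT and IFI proteins did not differ between cycle types past the threshold either. IFIT1 differed by -0.10 ± 0.52 at day 2, 0.11 ± 0.52 at day 4 and 0.23 ± 0.52 at day 6, and by 0.27 ± 0.53 and 0.36 ± 0.60 at days 2 and 4 without the dim arrays. At day 4 its arrays read -1.96, -2.21, -1.60 and -1.16 in conception cycles and -1.45, -1.73, -2.43 and -1.75 in non-mated cycles. At day 6 they read -2.34, -1.87, -1.94 and -1.32 in conception cycles and -2.89, -1.74, -1.15 and -2.59 in non-mated cycles, and the groups overlapped on each day. IFI27 differed by -0.27 ± 0.80, 0.06 ± 0.80 and -0.43 ± 0.80 at days 2, 4 and 6. On the day 4 arrays IFI27 read 0.67, 0.03, -0.53 and 1.35 in conception cycles and -0.34, 3.03, -0.92 and -0.47 in non-mated cycles, where the value of 3.03 came from a dim array, and without dim arrays the differences were 0.02 ± 0.72 at day 2 and 1.08 ± 0.81 at day 4. At day 6 it read -1.14, 1.81, 0.80 and 0.72 in conception cycles and 0.79, 1.14, 1.43 and 0.54 in non-mated cycles, and the widest spread was among the conception arrays. IFIT3, a partner of IFIT1, was among the 3 highest differences of day 4, with -0.19, -0.15, -0.53 and 0.66 in conception cycles and -1.52, -0.74, -0.26 and -0.03 in non-mated cycles. That difference was 0.59 ± 0.41 (limma, adjusted p = 0.69), and 0.10 ± 0.43 without the dim arrays, whose 2 readings were the lowest. IFIT2 differed by -0.20 ± 0.36, 0.18 ± 0.36 and 0.04 ± 0.36 at days 2, 4 and 6, and by -0.38 ± 0.29 at day 2 without the dim array.

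Both membrane restriction factors stood at the ends of a comparison. BST2, or tetherin, which holds budding virus particles at the cell surface, read 3.52, 2.81, 2.38 and 3.46 in conception cycles and 1.36, 2.33, 1.41 and 2.31 in non-mated cycles at day 2. All 4 conception arrays lay above all 4 non-mated arrays, which 1.43% of all features did in one direction or the other. The difference was 1.19 ± 0.52 (limma, adjusted p = 0.793), the highest of any member on that day, and 1.05 ± 0.41 without the dim array. Within batches it was 1.06 on scan day 1, where the cycle types shared no slide. It was 1.32 on scan day 2, which includes slide 4, and 0.84 on slide 4 alone. At day 4 BST2 read 3.31, 3.66, 1.97 and 2.20 in conception cycles and 3.70, 0.72, 2.89 and 2.76 in non-mated cycles, while the day 6 readings were 2.64, 2.94, 3.12 and 2.64 in conception cycles and 3.60, 2.45, 3.44 and 3.62 in non-mated cycles. The differences were 0.27 ± 0.52 and -0.45 ± 0.52, with -0.04 ± 0.47 at day 4 without the dim arrays, and the groups overlapped on both days.

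IFITM1 had the lowest difference at day 6 and the second lowest at day 4. It read 4.53, 3.87, 5.06 and 5.78 in conception cycles and 6.38, 5.39, 5.72 and 5.77 in non-mated cycles at day 6, a difference of -1.01 ± 0.47 (limma, adjusted p = 1.00). At day 4 it read 4.03, 5.41, 3.81 and 5.02 in conception cycles and 5.05, 6.45, 5.12 and 5.23 in non-mated cycles, a difference of -0.89 ± 0.47 (limma, adjusted p = 0.688). The groups overlapped on both days, through conception replicate 4 at day 6 and conception replicate 2 at day 4. At day 6 the difference was -1.88 between the arrays of scan day 2 and -0.14 between those of scan day 1. The mean over the 3 days was -0.58 ± 0.27 (limma, unadjusted p = 0.0458, adjusted p = 0.682). IFITM1 has close relatives in the same gene family, and whether its probe also binds their transcripts was not tested.

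Of the GTPases, MX1 differed by 0.49 ± 0.60 at day 2, -0.11 ± 0.60 at day 4 and -0.33 ± 0.60 at day 6, and by 0.21 ± 0.65 and 0.30 ± 0.73 at days 2 and 4 without the dim arrays. At day 4 it read 0.70, 0.14, -0.62 and 0.79 in conception cycles and 0.68, 0.85, -0.59 and 0.50 in non-mated cycles, and at day 6 -0.71, 0.90, 0.51 and 1.24 in conception cycles and 0.75, 0.68, 1.48 and 0.34 in non-mated cycles, with overlap on both days. As with ISG15, its day 2 difference was 1.95 on scan day 2 and -0.96 on scan day 1. GBP1 was among the 3 lowest differences at days 2 and 6. It read -2.20, -0.38, 0.13 and -0.69 in conception cycles and 1.09, -0.97, -0.28 and 1.08 in non-mated cycles at day 2, a difference of -1.01 ± 0.70 (limma, adjusted p = 0.793). At day 6 it read -0.73, -0.73, -1.30 and -1.68 in conception cycles and -0.24, 0.37, 0.35 and -1.61 in non-mated cycles, a difference of -0.82 ± 0.70. Conception arrays lay lower on average at both days, and the groups overlapped. On scan day 1 the day 6 difference was -1.85, and on scan day 2 it was 0.20. A second probe that carries the name GBP1 is described in the files as guanylate binding protein 3, was well above background on 2 arrays and was not used.

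Among the genes of RNA sensing and decay, IFIH1, which encodes the sensor MDA5 of long double-stranded RNA, was the highest member at day 6. It read -2.43, -1.37, -1.30 and -0.77 in conception cycles and -2.36, -2.24, -2.10 and -2.35 in non-mated cycles, with conception replicates 2, 3 and 4 above all non-mated arrays and replicate 1 below them. The difference was 0.80 ± 0.43 (limma, adjusted p = 1.00), and 0.80 ± 0.32 in the fit without the dim arrays (limma, adjusted p = 0.477). At day 2 it read -2.90, -1.98, -2.50 and -2.23 in conception cycles and -1.48, -2.28, -0.16 and -2.53 in non-mated cycles, the value of -0.16 from a dim array, a difference of -0.79 ± 0.43, and -0.31 ± 0.34 without it. For ISG20 at day 4 the arrays read 2.09, 2.25, -0.31 and -0.33 in conception cycles and 0.72, -0.95, 2.23 and -0.09 in non-mated cycles, a difference of 0.44 ± 0.78, which was -0.15 ± 0.97 without the dim arrays. OAS3 differed by -0.37 ± 0.69, -0.59 ± 0.69 and -0.69 ± 0.69 at days 2, 4 and 6, and by 0.48 ± 0.50 and 0.19 ± 0.57 at days 2 and 4 without the dim arrays. At day 6 OAS3 read -2.77, -3.49, -5.18 and -4.90 in conception cycles and -3.89, -3.22, -2.82 and -3.66 in non-mated cycles, and only 1 conception array and 3 non-mated arrays were well above background.

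The transcription factors IRF1, IRF2 and IRF7 had no common direction. IRF1 read -0.08, -0.58, -0.54 and -0.10 in conception cycles and -0.49, -1.73, -0.99 and -0.76 in non-mated cycles at day 4, a difference of 0.67 ± 0.35 (limma, adjusted p = 0.688), the highest of that day. Without the dim arrays it was 0.55 ± 0.33, and conception replicates 1 to 4 all lay above the 2 non-mated arrays left. IRF1 read -0.30, -0.51, 0.04 and -0.77 in conception cycles and -1.14, -1.01, 0.03 and -0.54 in non-mated cycles at day 2, and 0.00, -0.24, 0.19 and -0.73 in conception cycles and -0.82, -0.21, -0.16 and -1.09 in non-mated cycles at day 6, with differences of 0.28 ± 0.35 and 0.37 ± 0.35, and of 0.51 ± 0.29 at day 2 without the dim array. Its estimate was above 0 on each of the 3 days. The mean of the 3 days was 0.44 ± 0.20 (limma, unadjusted p = 0.0403, adjusted p = 0.682), and 0.48 ± 0.17 without the dim arrays (limma, adjusted p = 0.522), and it ranged from 0.39 to 0.73 over the alternative settings.

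IRF7 read -0.96, -1.03, -0.12 and -0.32 in conception cycles and -0.04, 0.77, 0.53 and -0.07 in non-mated cycles at day 6. All conception arrays lay below all non-mated arrays, which 4.33% of all features did in one direction or the other, and the difference was -0.91 ± 0.56 (limma, adjusted p = 1.00). It was -0.87 on scan day 1, where the cycle types shared no slide. On scan day 2, which includes slide 1, it was -0.94, and on slide 1 alone -0.96. IRF2 read -1.93, -2.78, -3.10 and -4.13 in conception cycles and -1.93, 0.14, -3.18 and -3.51 in non-mated cycles at day 4, a difference of -0.87 ± 0.69, which was 0.36 ± 0.46 without the 2 dim arrays. At day 6 IRF2 read -1.84, -2.78, -3.19 and -3.32 in conception cycles and -3.06, -3.38, -3.36 and -3.04 in non-mated cycles, a difference of 0.43 ± 0.69, and conception replicate 1 was the highest.

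TAP1, which carries peptides to the class I molecules of the major histocompatibility complex, was the only antigen-processing member that passed the filter. At day 2 it read 2.10, 2.76, 2.20 and 2.41 in conception cycles and 2.60, 2.45, -0.28 and 2.61 in non-mated cycles, a difference of 0.52 ± 0.49. That value rested on the dim array at -0.28, and without it the difference was -0.19 ± 0.30. Of the other effectors, DTX3L and LGALS3BP had dim probes. DTX3L, a ubiquitin ligase, read -4.58, -4.47, -3.44 and -4.52 in conception cycles and -3.89, -4.02, 0.60 and -4.23 in non-mated cycles at day 2, a difference of -1.37 ± 0.95, and -0.20 ± 0.55 without the dim array that read 0.60. LGALS3BP, a secreted glycoprotein that binds galectin, read -3.41, -3.85, -6.15 and -4.04 in conception cycles and -4.77, -4.97, 0.16 and -3.55 in non-mated cycles at day 2, and -2.52, -4.73, -5.50 and -6.00 in conception cycles and -3.68, 0.59, -3.90 and -4.96 in non-mated cycles at day 4. Its differences were -1.08 ± 1.14 and -1.70 ± 1.14, and 0.07 ± 0.85 and -0.26 ± 0.96 without the dim arrays. At least 1 array of each of these groups was not well above background for LGALS3BP. The ubiquitin ligase TRIM22, known for restricting retroviruses, differed by -0.11 ± 0.37, 0.04 ± 0.37 and -0.16 ± 0.37 at days 2, 4 and 6, and by 0.04 ± 0.34 and -0.27 ± 0.39 at days 2 and 4 without the dim arrays.

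**Figure D5:**
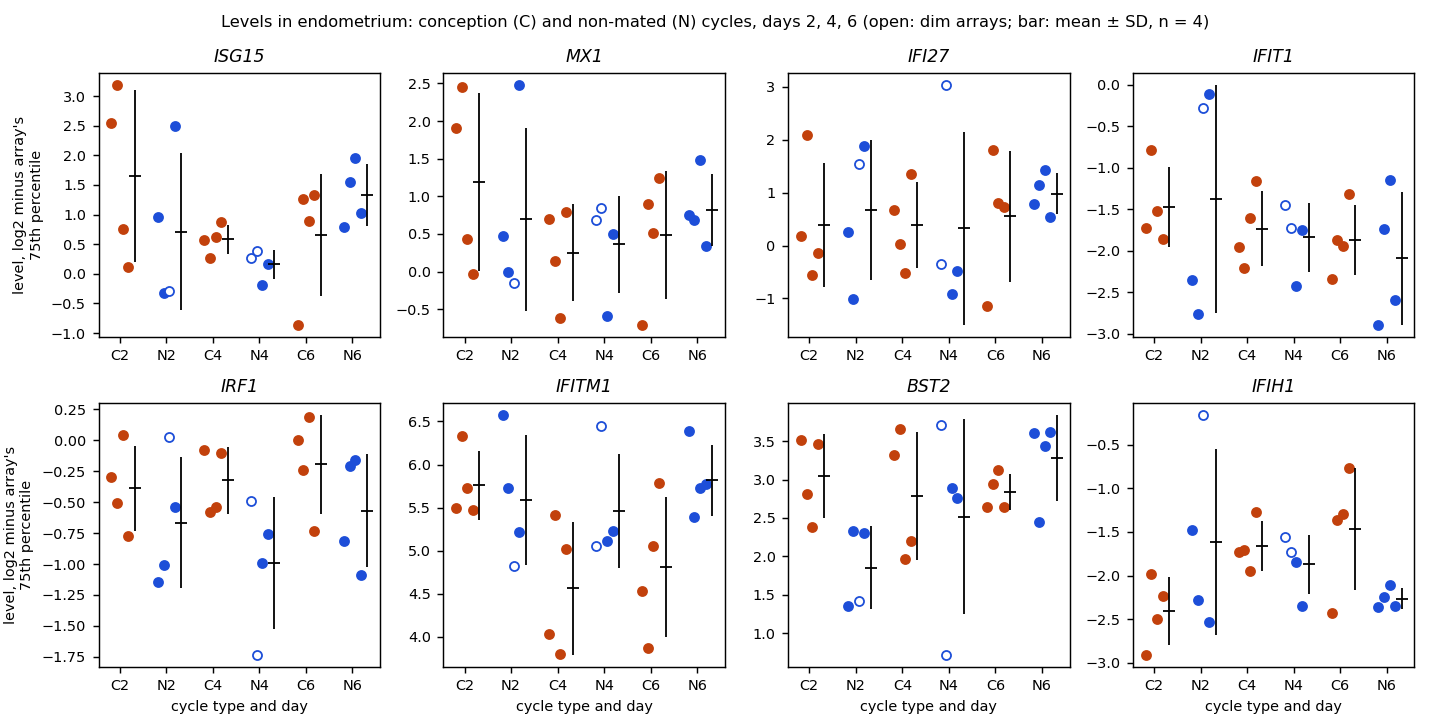
Levels of 8 members on every array (y axes, log2 minus the 75th percentile of the array) in conception (C, orange) and non-mated (N, blue) cycles at days 2, 4 and 6 (x axes). Open circles are the 3 dim arrays and bars give mean ± SD over 4 arrays; with all arrays, BST2 at day 2 is the only one of the 8 whose groups did not overlap between the cycle types, with conception arrays from 2.38 to 3.52 and non-mated arrays from 1.36 to 2.33.

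With time, no member was called within either cycle type. In conception cycles 0 of 19 members were called by limma between days 6 and 2, beside 0.0166% of features, and 1 of 19 members and 4.21% of features had an unadjusted p under 0.05. Without the dim arrays, 0 of 19 members but 1.72% of features were called in this comparison. Between days 4 and 2 of conception cycles 0 of 19 members and 0% of features were called, with 1 of 19 and 2.54% unadjusted. In non-mated cycles 0 of 19 members and 0% of features were called between days 4 and 2 (unadjusted 0 of 19 and 3.53%) and between days 6 and 2 (unadjusted 1 of 19 and 3.19%). Of the tests over all 3 days, that within conception cycles called 0 of 19 members and 0.0083% of features (unadjusted 1 of 19 and 2.23%), and that within non-mated cycles 0 of 19 and 0% (unadjusted 1 of 19 and 2.43%). The members' median difference in conception cycles was -0.22 for day 4 against day 2 and -0.29 for day 6 against day 2, beside 0.00 and -0.02 for all features, with 5 and 7 of 19 members higher and 50% and 48.3% of all features. In non-mated cycles it was -0.34 for day 4 against day 2 and -0.03 for day 6 against day 2, beside -0.13 and -0.18 for all features, with 4 and 9 of 19 members higher and 40.6% and 39.6% of all features. Without the dim arrays 6 and 7 of 19 members were higher, beside 48.8% and 51.6% of all features, and the members' medians were -0.23 and -0.05. Quantile normalization moved the median of non-mated day 6 against day 2 to 0.47 for the members and 0.48 for all features, with 14 of 19 members higher, 9 of them above the median of all features. No member had groups that did not overlap between days 6 and 2 of conception cycles, where 7.75% of features had, or between days 4 and 2 of non-mated cycles, where 1.15% had. The non-mated comparison holds all 3 dim arrays, and without them BST2 (higher at day 4) and DTX3L (lower at day 4) did not overlap, beside 17.6% of features. DTX3L was well above background on 3 of 4 non-mated arrays at day 2 and on 1 of 4 at day 4, so its day 4 readings are mostly bounds. Comparisons with day 2 of one cycle type share its 4 arrays.

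The member that was highest at day 6 against day 2 of conception cycles was IFIH1. Its conception arrays read -2.90, -1.98, -2.50 and -2.23 on day 2, while on day 4 they read -1.73, -1.70, -1.95 and -1.27 and on day 6 -2.43, -1.37, -1.30 and -0.77. The difference was 0.94 ± 0.43 (limma, unadjusted p = 0.0382, adjusted p = 0.998) and 0.94 ± 0.32 in the fit without the dim arrays (limma, adjusted p = 0.153). All day 4 arrays lay above all day 2 arrays, the nearest 2 at -1.95 and -1.98. Of the 19 members, IFIH1 (higher at day 4) and IFITM1 (lower) did not overlap between these days, beside 4.19% of all features. At day 6 replicate 1 lay among the day 2 arrays. In non-mated cycles the difference of day 6 against day 2 had the other sign, -0.65 ± 0.43, and -0.17 ± 0.34 without the dim array. The interaction of cycle type and day for IFIH1 had a limma unadjusted p of 0.0455 and an adjusted p of 0.987.

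IFITM1 was the second lowest. Its conception arrays read 5.50, 6.33, 5.73 and 5.48 on day 2, while on day 4 they read 4.03, 5.41, 3.81 and 5.02 and on day 6 4.53, 3.87, 5.06 and 5.78. The groups did not overlap between days 4 and 2, with a difference of -1.19 ± 0.47 (limma, unadjusted p = 0.0189, adjusted p = 1.00), and 4.19% of all features did not overlap between these days. Day 6 against day 2 gave -0.95 ± 0.47. ISG15 was lowest in that comparison at -0.99 ± 0.64, with the 2 high arrays of day 2 described above, and OAS3 stood at -0.90 ± 0.69. DTX3L and IRF2, the next highest after IFIH1, stood at 0.58 ± 0.95 and 0.29 ± 0.69. In non-mated cycles, BST2 read 1.36, 2.33, 1.41 and 2.31 on day 2, while on day 4 it read 3.70, 0.72, 2.89 and 2.76 and on day 6 3.60, 2.45, 3.44 and 3.62. All day 6 arrays lay above all day 2 arrays, as 3% of all features did in one direction or the other, with a difference of 1.43 ± 0.52 (limma, unadjusted p = 0.0113, adjusted p = 0.767).

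Other genes of the pathway gave no call by limma in these comparisons. Of 10 interferon genes listed, 6 had a probe, and 0 of the 6 passed the filter. For IFNB1, IFNK, IFNW1, IFNA2 and IFNL1 no array was well above background, and IFNG, the gene of interferon gamma, was so on 1. Of 10 receptors and kinases 5 were matched and 3 passed, IFNGR1, IFNGR2 and JAK2, the chains of the interferon gamma receptor and a kinase. IFNGR1 differed by -0.36, 0.31 and -0.22 at days 2, 4 and 6, and by -0.15 and -0.22 at days 2 and 4 without the dim arrays. IFNGR2 differed by 0.23, 0.82 and 0.32, and by 0.17 and 0.86 without the dim arrays. JAK2 differed by 0.04, 0.52 and -0.02, and by -0.09 and 0.03 without the dim arrays. Feedback inhibitors passed in 3 of 5 cases, with no common direction. SOCS1, which blocks Janus kinases, differed by -0.32, -0.41 and -0.88 at days 2, 4 and 6, and by 0.26 and 0.93 at days 2 and 4 without the dim arrays. SOCS3, well above background on 14 arrays, differed by -1.27, -1.71 and 1.83, and by -0.17 and -0.13 without the dim arrays. PIAS1 differed by 0.25, -0.29 and -0.70, and by 0.07 and -0.19 without the dim arrays. Of 10 interferon gamma targets, 3 were matched and 2 passed. IDO1, which degrades tryptophan, differed by 0.55, -0.05 and -0.59 at days 2, 4 and 6 (-1.37 at day 4 without the dim arrays). B2M, the light chain of class I molecules, differed by 0.57, 0.88 and 0.49 (0.09 at day 2 without the dim array). The mean of B2M over the 3 days was 0.65 ± 0.22 (limma, unadjusted p = 0.0082, adjusted p = 0.613), and 0.50 without the dim arrays. CXCL10, a chemokine that both kinds of interferon induce, was well above background on 5 arrays. Over the 21 arrays IDO1 correlated with IFI27 at r = 0.63, with MX1 at 0.52 and with ISG15 at 0.37, whereas B2M did so at 0.03, 0.12 and 0.14.

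Markers of leukocytes and other cells were read beside the members. None was called between cycle types, with adjusted p-values from limma of 0.682 or higher. The T cell list had 3 of 7 genes that passed the filter, with median differences of -0.29, 0.70 and 0.57 at days 2, 4 and 6, and of 0.47 and 1.42 at days 2 and 4 without the dim arrays. CD3E was well above background on 7 arrays and CD3G on 1. Natural killer cell genes passed in 5 of 6 cases, with medians of -0.31, -0.82 and 0.67, and of 0.26 and 0.68 at days 2 and 4 without the dim arrays. With all arrays, 2 of the 5, GZMB and PRF1, were higher and 3 lower at days 2 and 4, and all 5 were higher at day 6. Macrophage genes passed in 4 of 8 cases, with medians of 0.09, 0.65 and 0.18, and of 0.34 and 0.99 at days 2 and 4 without the dim arrays. At day 4 CD14, CD68, CSF1R and AIF1 stood at 0.98, 1.14, -0.08 and 0.33, and at 0.85, 1.13, 0.58 and 1.34 without the dim arrays. Of the B cell list 1 of 4 genes passed, and of the dendritic cell list 0 of 6, with FLT3 well above background on 1 array and CLEC9A on 0. The level of each list per array was taken as the median of its genes and correlated with the members' median over the 21 arrays. For leukocytes r was 0.04 for T cells, -0.21 for natural killer cells, -0.09 for macrophages and -0.53 for the 1 B cell gene. It was 0.40 for epithelium, -0.22 for the stroma list, -0.38 for endothelium and 0.43 for smooth muscle. Genes of one list differed, so r of a list does not stand for each of its genes. CD4 correlated with the members' median at -0.55, and CD2 and CD8A at 0.19 and 0.20. Natural killer cell genes ranged from -0.59 for NKG7 to 0.18 for PRF1, and the stroma list from -0.31 for HOXA10 to 0.22 for MSX1. The smooth muscle gene MYH11 correlated with ISG15 at 0.62, with MX1 at 0.52 and with IFI27 at 0.62, and its part in their coordination was not tested.

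Of the 28 listed symbols that no gene name matched, 8 were found through a gene ID or transcript accession in the RefSeq gene table, and they are given apart from the members. These were IFI16, PSMB8, PSMB9, UBE2L6, XAF1, ADAR, PLSCR1 and PARP9, and all 8 passed the filter. The remaining 20, among them IFI6, USP18, IRF9 and RSAD2, were not analysed here. PSMB8 and PSMB9, subunits of the immunoproteasome, stood at 1.36 and 0.80 in conception against non-mated cycles at day 4 (limma, adjusted p = 0.688 for each), and at 1.63 and 0.97 without the dim arrays. PSMB8 stood at 0.63 at day 2 and 0.20 at day 6. IFI16, a DNA sensor, stood at 0.94 at day 4, and at 0.11 without the dim arrays. PLSCR1, a phospholipid scramblase, stood at -2.22 at day 2 and at -1.30 without the dim array, but was well above background on 12 arrays. UBE2L6, the conjugating enzyme for ISG15, stood at -0.96, -0.35 and -0.74 at days 2, 4 and 6, and at -0.29 and 0.22 at days 2 and 4 without the dim arrays. With ISG15, XAF1 correlated at r = 0.50 over the 21 arrays and the other 7 genes between -0.21 and 0.24.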

How the data were processed

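Gene expression was measured in 24 rhesus endometrium samples, 4 in each of 6 groups, on one-colour Agilent arrays. Per the file headers, the authors extracted probe intensity values with Agilent Feature Extraction 9.5.3.1, which had been background-subtracted in the processed signal that was used here, whereas the submitters' processing notes name version 10.7.3.1. The authors also deposited a table of log2 values, which tracked the scanner values (correlation of differences between arrays at least 0.982) and served only as an alternative, its baseline unknown. Titles of 8 non-mated samples name another day than their source name, description and characteristics, and the day in the last 3 was used.

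Levels were log2 of the processed signal minus the 75th percentile of each array. A probe was kept if 3 or more of the 4 arrays of some group had it well above background (12780 of 20217 probes), and the probe with the highest mean stood for a gene. limma 3.58.1 in R 4.3.3 fitted 6 group means with 18 residual degrees of freedom over 12053 features, with Benjamini-Hochberg adjustment and a threshold of 0.05, after a test on simulated data. Correlations used Python 3.11.15 with scipy 1.17.1. The members and lists were chosen with earlier results of these data known. Genes named were ISG15, MX1, IFIT1, IFI27, OAS1 and IRF1, the 3 highest and 3 lowest members in each cycle comparison and in conception day 6 against day 2, the 5 members most and the 3 least correlated with the others, and genes of the lists of pathway genes and cell type markers. The pairs OAS3 with LGALS3BP and ISG20 with GBP1 were named after their values were seen. Alternatives were normexp, quantile normalization, the deposited table, no filter, slide, scan day and replicate blocks, the mean of a gene's probes, leaving out the dim arrays, and leaving out each array. Promoter sequences were not used here.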

Additional observations from a re-analysis of the deposited data

Results flagged for a closer look

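In 6 of 114 sets of 4 arrays (19 members in 6 groups), 1 array stood so far from the other 3 that its gap to the nearest of them, as a share of the range, passed Dixon's critical value. Chance gives about 1 such set in 20. On the dim arrays lay 4 of the 6. IFI27 and IFITM1 were highest on non-mated day 4 replicate 2, at 3.03 and 6.45. TAP1 was lowest and DTX3L highest on non-mated day 2 replicate 3, at -0.28 and 0.60. Of the other arrays, conception day 2 replicate 3 had the highest DTX3L of its group, at -3.44, and non-mated day 6 replicate 2 the lowest BST2, at 2.45.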

How the results depend on the processing

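No member was called in any of the 11 comparisons under any setting run, the 24 fits that each left out 1 array included. The members' median difference at day 2 was -0.11, and it moved to 0.54 with quantile normalization and to 0.38 with the slide as a block. For non-mated day 6 against day 2 it was -0.03, and it moved to 0.47 with quantile normalization and to -0.54 without the filter. The median correlation between members, 0.11, was 0.055 with all 24 arrays, beside 0.025 over all pairs of features. It was 0.018 with normexp, 0.16 with quantile normalization and 0.045 without the filter. With levels centred on slide and group it was 0.0072, and as Spearman's rho 0.13. The cause was not tested. With each array left out in turn, that median ranged from 0.069 to 0.128, lowest without non-mated day 6 replicate 3. The members' median difference then ranged from -0.27 to 0.07 at day 2, -0.04 to 0.18 at day 4, -0.34 to 0.03 at day 6 and -0.14 to 0.02 in the mean of the days. Within conception cycles it ranged from -0.34 to -0.06 for day 4 and -0.31 to -0.14 for day 6 against day 2, and within non-mated cycles from -0.57 to -0.04 and -0.25 to 0.11. ISG15 with MX1 ranged from 0.90 to 0.94 over the alternatives added after seeing the data, and from 0.88 to 0.95 with arrays left out. Leaving out the dim arrays moved the count of all features called between conception days 6 and 2 to 207, against 2 with them. The replicate number as a block gave 0 members called and a day 2 median of -0.11. Same-numbered arrays of different groups correlated between -0.673 and 0.634 over 60 pairs, with a median of 0.018 against -0.013 for other pairs. Of the 24 arrays, 12 correlated best with an array of their own number, and whether unpaired arrays would give as many was not tested. Conception replicate 3 lay on slide 7 and conception replicate 4 on slide 8 on each day, so number and slide cannot be told apart there. The labels name no animals, and the numbers were not taken to pair the samples. Weak signal limits OAS3, DTX3L, LGALS3BP and the 7 members below the filter.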
